A study of Mus musculus with 6 samples.

Results

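The genes described here are 10 regulators and surface receptors of the earliest thymic progenitors: Kit, Cd44, Erg, Spi1, Lmo2, Lyl1, Tal1, Bcl11a, Hhex and Mef2c. They were picked by symbol from the 19937 genes that a probe set with a single gene symbol names, and each was read by 1 probe set. The choice was made with earlier results of these data known, so counts of called members are descriptions. Whole-transcript arrays with 1 colour measured the RNA of 6 samples in 3 groups of 2. In the 79-6 group, Rag1-/- fetal thymi at E17.5 were stimulated with anti-CD3 in organ culture for 40 h with 50 µM 79-6, a small molecule designed to block the BTB domain of Bcl6, a transcriptional repressor. The DMSO group had the same 40 h of anti-CD3 with the vehicle DMSO alone, and the fresh group was taken at 0 h from unstimulated thymi of the same genotype and age. All 3 groups share the Rag1-/- genotype, which prevents rearrangement of the T cell receptor genes, and in all of them the RNA came from magnetically purified Thy1.2+ cells. The labels do not say how many thymi went into an array or whether the replicates are separate cultures, so p-values cover only the spread between these arrays.

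In normal development the cells that seed the thymus carry a stem and progenitor programme that is switched off as they commit to the T lineage. Kit, the receptor for stem cell factor, and the adhesion receptor Cd44 mark the earliest double-negative (DN) stages and are lost before the DN3 stage, at which Rag1-deficient thymocytes stop. The ETS factors Erg and PU.1 (encoded by Spi1), the LIM-domain bridging protein Lmo2 with its basic helix-loop-helix partners Lyl1 and Tal1, the zinc-finger factor Bcl11a, the homeodomain factor Hhex and the MADS-box factor Mef2c belong to that programme, and several of them cause T cell leukaemia when they stay on. Most are also used elsewhere: Spi1 by macrophages, Bcl11a and Mef2c by B cells and dendritic cells, Erg and Tal1 by endothelium, and Kit by mast cells.

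The promoters of the 4 genes that were lower in both cultured groups than in fresh cells are shown because these genes moved the same way against fresh cells. They are the 250 bases before an annotated start, 5′ to 3′ on the gene's strand, from RefSeq on build GRCm38.p6, in which 8 of the 10 genes matched. Capitals mark E-boxes (CANNTG, the class of site that Lyl1 and Tal1 dimers bind), GATA cores (GATA) and ETS cores (GGAA, the class that Erg and PU.1 bind), searched on both strands.
Kit, chr5:75574737-75574986, plus strand: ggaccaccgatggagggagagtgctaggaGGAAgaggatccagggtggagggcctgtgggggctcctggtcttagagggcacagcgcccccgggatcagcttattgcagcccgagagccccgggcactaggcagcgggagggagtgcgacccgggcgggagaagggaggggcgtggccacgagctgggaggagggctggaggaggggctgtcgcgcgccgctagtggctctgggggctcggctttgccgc
Erg, chr16:95459349-95459598, minus strand: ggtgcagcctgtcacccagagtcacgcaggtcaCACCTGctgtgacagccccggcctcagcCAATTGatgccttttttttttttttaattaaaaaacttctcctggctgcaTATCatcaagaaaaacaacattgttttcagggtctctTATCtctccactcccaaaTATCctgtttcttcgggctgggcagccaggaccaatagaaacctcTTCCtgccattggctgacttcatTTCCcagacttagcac
Lyl1, chr8:84701207-84701456, plus strand: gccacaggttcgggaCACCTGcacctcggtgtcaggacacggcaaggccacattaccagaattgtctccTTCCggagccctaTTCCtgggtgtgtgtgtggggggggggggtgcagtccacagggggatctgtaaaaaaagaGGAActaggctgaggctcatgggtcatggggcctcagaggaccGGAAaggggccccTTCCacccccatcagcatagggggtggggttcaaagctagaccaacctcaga
Bcl11a, chr11:24080445-24080694, plus strand: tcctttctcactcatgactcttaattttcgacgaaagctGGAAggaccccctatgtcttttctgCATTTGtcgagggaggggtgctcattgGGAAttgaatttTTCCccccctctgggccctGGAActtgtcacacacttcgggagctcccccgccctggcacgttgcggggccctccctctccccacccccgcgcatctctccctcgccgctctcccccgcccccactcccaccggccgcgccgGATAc

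No base of these windows lies in more than 1 match. The Kit window holds 1 ETS core and neither an E-box nor a GATA core. The Erg window holds 2 E-boxes, 3 GATA cores and 2 ETS cores, and it belongs to the most downstream of 3 annotated starts; the other windows of Erg hold 1 and 0 GATA cores and no E-box. Lyl1 holds 1 E-box and 5 ETS cores, and Bcl11a 1 E-box, 1 GATA core and 4 ETS cores. Of 32851 such windows over all genes, 66.2% hold an E-box, 53.6% a GATA core and 93.4% an ETS core, so such matches are common. The arrays do not tell which start was used, and the probe sets' positions were not used here. The Bcl6-like palindrome TTCNNNGAA, which 7.02% of windows hold, was found in 1 of the 4 windows shown, that of Bcl11a. Lmo2 and Spi1 are not shown.

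The arrays had median intensities of 99.3 to 103.6, and replicates correlated across genes at 0.997 to 0.998. Intensities are linear values after robust multi-array averaging (RMA), and tests used their log2. Arrays give no counts, so 2 arrays a group limit the precision. The T-lineage genes Thy1, Cd3e, Cd3g and Cd3d had intensities of at least 2314.5 on all 6 arrays, the lowest being that of Cd3d. Summed intensities of 13 thymocyte markers were 50185 and 51222 with 79-6, 47904 and 48815 with DMSO and 65794 and 64235 in fresh cells. With DMSO against fresh cells 6 of these markers were called higher and 6 lower, against 8.89% and 10.7% of all genes. The lower sum was therefore not a fall of the whole list. Il2ra, 1 of the lower ones, had 3769 and 3623 with DMSO and 14481 and 13926 in fresh cells. Other cell types left a signal as well. Summed intensities of 22 macrophage and dendritic cell markers were 42748 and 47986 with 79-6, 32565 and 35367 with DMSO and 13256 and 19372 in fresh cells, and the 2 fresh arrays stood furthest apart. In such bulk samples fewer cells of a type and less RNA per cell cannot be told apart.

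**Figure D1:**
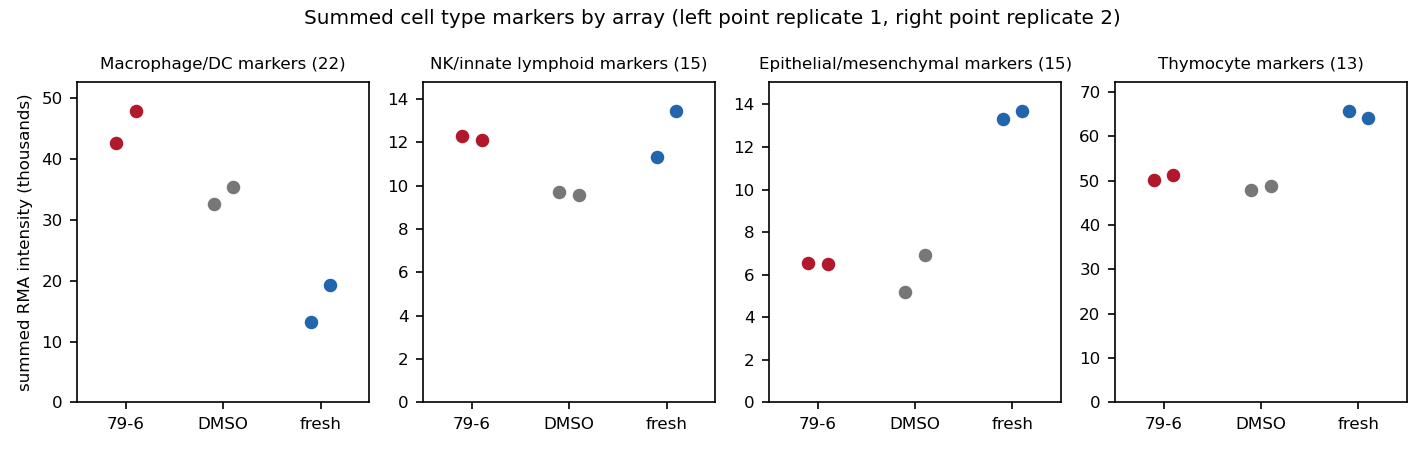
Summed RMA intensity (vertical axis, scaled as its label states and starting at 0) of 4 marker lists on each array of the 79-6, DMSO and fresh groups; each point is 1 array. The macrophage and dendritic cell sum was highest with 79-6 (42748 and 47986) and lowest in fresh cells (13256 and 19372), and the thymic epithelial and mesenchymal sum was highest in fresh cells (13300 and 13704).

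Kit, Lmo2 and Erg were higher with 79-6 than with DMSO. No member was called lower, against 1.98% of all genes, and the other 7 did not pass the test. Kit stood 2.08-fold higher, Lmo2 1.81-fold and Erg 1.43-fold. The 3 higher calls among 10 members compare with 2.38% of all genes called higher and 4.36% called in either direction (limma, adjusted p under 0.05). The median log2 change of the members was 0.17, against 0.02 over all 19937 genes. Arrays of the 79-6 and DMSO groups did not overlap for 5 members, Kit, Lmo2, Erg, Spi1 and Tal1, all of them higher with 79-6. That is 5 of 10, against 49.0% of all genes not overlapping in either direction and 26.8% not overlapping and higher, and 22.2% not overlapping and lower. Kit was the 1 member called with at least 2-fold, against 0.406% of all genes.

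The 40 h of anti-CD3 culture in DMSO split the members. Erg, Kit, Bcl11a and Lyl1 fell below fresh cells and Spi1 rose, and the other 5 did not pass the test. The 4 lower and 1 higher calls compare with 10.7% of all genes called lower and 8.89% called higher, 19.6% in all (limma, adjusted p under 0.05). The members' median log2 change was -0.10, against 0.02 over all genes. Of the 10 members 8 did not overlap, 4 higher and 4 lower, against 60.0% of all genes, 31.9% higher and 28.1% lower. Erg, Kit and Bcl11a were called with at least 2-fold, against 2.60% of all genes. Anti-CD3, vehicle, culture and time all differ between these groups and cannot be told apart.

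With 79-6 against fresh cells 4 members were lower (Erg, Bcl11a, Kit and Lyl1) and 3 higher (Lmo2, Spi1 and Cd44), against 13.9% and 12.0% of all genes and 26.0% called in either direction, with a members' median of -0.01 against 0.05 over all genes. Here too 8 of 10 did not overlap, 4 higher and 4 lower, against 64.5% of all genes, 36.8% higher and 27.7% lower, and Erg, Bcl11a, Lmo2 and Spi1 were called with at least 2-fold, against 3.42%. The 3 comparisons share arrays pairwise, so their values are given side by side and are not independent of each other.

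**Figure D2:**
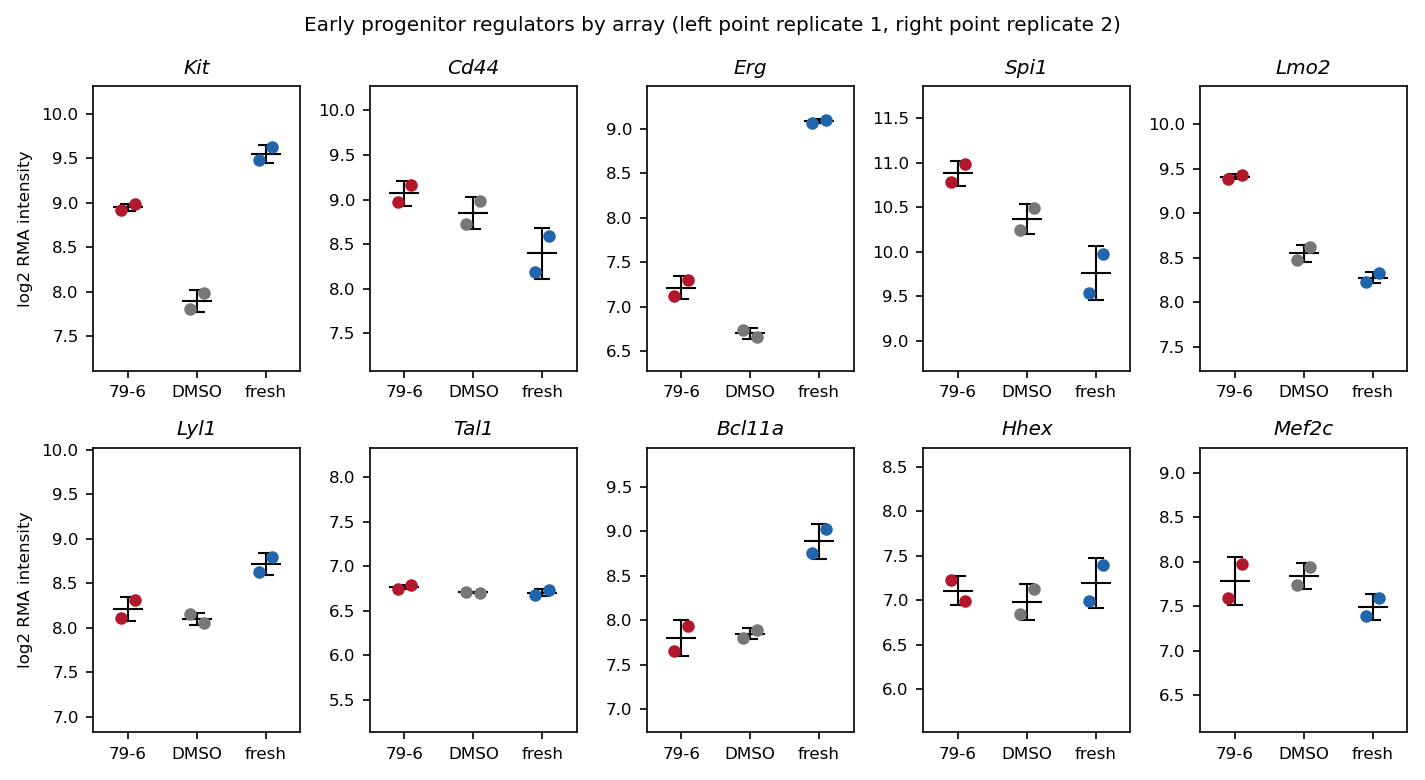
log2 RMA intensity of each gene on every array of the 79-6, DMSO and fresh groups (points), with the group mean and SD (bars, n = 2); all panels span the same number of log2 units. Kit with 79-6 (485 and 503) lies between DMSO (223 and 253) and fresh cells (712 and 785), Lmo2 is highest with 79-6, Erg is highest in fresh cells and Tal1 is flat.

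Kit is the receptor tyrosine kinase through which stem cell factor sustains progenitors and DN2 thymocytes. Its intensity was 485 and 503 with 79-6, 223 and 253 with DMSO and 712 and 785 in fresh cells. The 3 groups did not overlap, and the 79-6 arrays lay between the others. With 79-6, Kit rose over DMSO by 1.06 ± 0.09 on the log2 scale (SE; limma's adjusted p = 0.00314), the 71st largest rise among all genes. Against fresh cells Kit fell by 1.65 ± 0.09 with DMSO (adjusted p = 4.62e-05 by limma), 3.14-fold, and by 0.60 ± 0.09 with 79-6 (adjusted p = 0.00299 by limma), 1.51-fold. All 3 calls held when any 1 array was left out. With the macrophage marker level of each array as a covariate, which did not overlap between groups and is largely inseparable from them, the change against DMSO was 0.93 (adjusted p = 0.0665 by limma), and 32 genes in all were called against 869 without it. The 79-6 change against fresh cells was then -0.92 (adjusted p = 0.248 by limma).

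Mast cells and innate lymphoid cells also carry Kit, and their markers gave different pictures. The mast cell and progenitor protease gene Cpa3 had intensities of 313 and 400 with 79-6, 887 and 1027 with DMSO and 2791 and 3024 in fresh cells. Cpa3 thus fell with 79-6 against DMSO (log2 change -1.43, adjusted p = 0.00363 by limma), while Kit rose. Mcpt4, Tpsb2, Cma1, Fcer1a, Ms4a2 and Hdc, further mast cell genes, were not called in either comparison with DMSO, and Fcer1a and Ms4a2, which encode chains of the IgE receptor, did not exceed 29.6 on any array. Of 15 natural killer and innate lymphoid markers 6 were higher and 1 lower with 79-6 than with DMSO, against 2.38% and 1.98% of all genes. Their summed intensities were 12298 and 12131 with 79-6, 9692 and 9551 with DMSO and 11307 and 13465 in fresh cells, so the DMSO arrays were the lowest here as for Kit. The most changed called genes of this list were the cytotoxic genes Gzmb (1.13) and Nkg7 (1.12), the receptor gene Klrd1 (0.97) and the interleukin receptor chain Il2rb (0.85). The lower one, the cytotoxic gene Gzma, was highest with DMSO, unlike Kit. It had 3537 and 3409 with 79-6, 4967 and 4913 with DMSO and 2451 and 2476 in fresh cells. The part of natural killer and innate lymphoid cells in the Kit signal was not tested.

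Cd44, the hyaluronan receptor that marks the earliest DN cells and later activated T cells and macrophages, did not follow Kit. Its intensity was 502 and 574 with 79-6, 423 and 504 with DMSO and 293 and 386 in fresh cells. The 79-6 and DMSO arrays overlapped, and both groups lay above fresh cells. The change against DMSO was 0.22 with a 95% interval of -0.13 to 0.57 (adjusted p = 0.471 by limma). Against fresh cells Cd44 stood at 0.46 with DMSO (adjusted p = 0.0771 by limma), which does not pass the threshold. It passed in 4 of 15 alternative fits: with the replicate block (adjusted p = 0.0117), without fresh replicate 2 (0.66, adjusted p = 0.0299), with arrays set to 1 median (0.50, adjusted p = 0.0383) and with a trended, robust spread (adjusted p = 0.0407). It rose by 0.67 ± 0.15 (SE) with 79-6 (adjusted p = 0.0152 by limma), a call lost without fresh replicate 1 (adjusted p = 0.0732) or 79-6 replicate 2 (adjusted p = 0.0845). With the macrophage marker level as covariate its changes were all below 0, between -0.19 and -0.07, and none was called.

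Erg, an ETS factor of stem cells, early T cell precursors and endothelium, showed the largest change of the 10 genes. Its intensity was 139 and 158 with 79-6, 107 and 101 with DMSO and 538 and 548 in fresh cells. Fresh cells lay far above both cultured groups, and 79-6 arrays lay above DMSO arrays. Erg fell by 2.38 ± 0.09 (SE) on the log2 scale with DMSO (adjusted p = 1.4e-05 by limma), 5.22-fold and the 19th largest fall among all genes. With 79-6 it fell 3.66-fold below fresh cells (log2 change -1.87, adjusted p = 1.93e-05 by limma). Against DMSO it rose by 0.51 ± 0.09 with 79-6 (adjusted p = 0.0249 by limma), and this smaller call was lost without DMSO replicate 1 (adjusted p = 0.103), DMSO replicate 2 (adjusted p = 0.155) or 79-6 replicate 2 (adjusted p = 0.111), and with the macrophage covariate (0.48, adjusted p = 0.356). With DMSO the Erg values lay near the median intensity of those arrays, 100.1 on each, so the fold changes start from a low level. With a pseudocount of 50 the log2 change was 0.36 for 79-6 against DMSO and -1.94 for DMSO against fresh cells, both still called. Of 12 endothelial markers 3 were lower (Emcn, Kdr and Cdh5) and 1 higher (Pecam1) with DMSO than in fresh cells. Over all genes 10.7% were called lower and 8.89% higher. None of the 12 was called between 79-6 and DMSO, where 4.36% of all genes were. The sum of all 12 was 1758 and 1851 with 79-6, 1748 and 1871 with DMSO and 1697 and 1716 in fresh cells, and Pecam1, which leukocytes and platelets also express, contributed 1057 and 1054 with 79-6, 1056 and 1177 with DMSO and 892 and 832 in fresh cells. Without Pecam1, a sum added after the data were seen, the other 11 markers gave 702 and 797 with 79-6. They gave 692 and 694 with DMSO and 806 and 884 in fresh cells. The lower 79-6 array was close to the DMSO arrays. The part of endothelial cells in the Erg signal was not tested.

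Spi1 encodes PU.1, the ETS factor that early T progenitors use and that T commitment silences, and that macrophages keep. Its intensity was 1758 and 2021 with 79-6, 1212 and 1434 with DMSO and 745 and 1003 in fresh cells. The groups did not overlap and ran opposite to Erg against fresh cells. Spi1 rose by 0.61 ± 0.16 (SE) with DMSO against fresh cells (adjusted p = 0.032 by limma), a call lost without fresh replicate 1 (0.39, adjusted p = 0.145), DMSO replicate 1 (adjusted p = 0.0626) or DMSO replicate 2 (adjusted p = 0.169). It rose by 1.12 ± 0.16 with 79-6 against fresh cells (adjusted p = 0.00201 by limma), 2.18-fold. The 79-6 change against DMSO was 0.52 with a 95% interval of 0.15 to 0.88 and did not pass over all genes (adjusted p = 0.119 by limma).

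Spi1 and the macrophage marker sum ordered the arrays alike. The 6 Spi1 arrays stood in the same order as the summed intensity of the 22 macrophage and dendritic cell markers, 6 of 6 in the same rank. How many of all genes share this order was not counted, and the part of macrophages in the Spi1 signal was not tested. Of the 22 markers 3 were higher and 0 lower with 79-6 than with DMSO, against 2.38% and 1.98% of all genes. With DMSO 9 were higher and 0 lower than in fresh cells, against 8.89% and 10.7% of all genes. With 79-6 19 were higher and 0 lower than in fresh cells, against 12.0% and 13.9%. Csf1r, the macrophage colony-stimulating factor receptor gene, had 842 and 924 with 79-6, 680 and 725 with DMSO and 207 and 330 in fresh cells, and Itgam, which encodes CD11b, had 735 and 829 with 79-6, 436 and 502 with DMSO and 123 and 208 in fresh cells. No marker of this list was at 0, and the dendritic cell gene Clec9a was the lowest, with at most 28.8 on any array. With the median level of this list as covariate the Spi1 changes were 0.15 against DMSO with 79-6 (adjusted p = 0.824 by limma), 0.05 with DMSO against fresh cells (adjusted p = 0.951) and 0.20 with 79-6 against fresh cells (adjusted p = 0.905). That level did not overlap between groups and is largely inseparable from them, so no conclusion is drawn from these changes.

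Lmo2 bridges E-box-binding and GATA factors in a transcription complex and drives T cell leukaemia when it is not switched off. Its intensity was 671 and 689 with 79-6, 358 and 393 with DMSO and 301 and 321 in fresh cells. All groups were apart, and the step to 79-6 was the larger one. Lmo2 rose by 0.86 ± 0.08 (SE) with 79-6 against DMSO (adjusted p = 0.00372 by limma), the 120th largest rise among all genes, and by 1.13 ± 0.08 against fresh cells (adjusted p = 1.11e-04 by limma). Both calls held without any 1 array. With DMSO against fresh cells the change of 0.27 had an adjusted p of 0.0534 by limma and was called in 5 of 15 alternative fits. The 6 Lmo2 arrays also stood in the same order as the macrophage marker sum, an order whose share over all genes was not counted. With that marker level as covariate the change was 0.77 against DMSO (adjusted p = 0.106 by limma) and 0.91 against fresh cells (adjusted p = 0.229 by limma) with 79-6.

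Lyl1 and Tal1, related basic helix-loop-helix partners of Lmo2, were not called higher with 79-6. Lyl1 had intensities of 277 and 317 with 79-6, 284 and 266 with DMSO and 396 and 446 in fresh cells. The 2 cultured groups overlapped and both lay below fresh cells. Lyl1 fell by 0.61 ± 0.10 (SE) with DMSO (adjusted p = 0.00503 by limma) and by 0.50 ± 0.10 with 79-6 (adjusted p = 0.00914 by limma) against fresh cells; the second call was lost without fresh replicate 2 (adjusted p = 0.0612), and both with the macrophage covariate (-0.83, adjusted p = 0.0647, and -0.86, adjusted p = 0.329). Between 79-6 and DMSO its change was 0.11, with an interval of -0.12 to 0.34 (adjusted p = 0.585 by limma). Tal1, which erythroid cells and endothelium use, had 108 and 111 with 79-6, 105 and 104 with DMSO and 102 and 106 in fresh cells. Its level hardly differed between arrays, and the largest of its 3 log2 changes was 0.07, with an interval of -0.09 to 0.23. Tal1 and Hhex lay below the median level of all genes, and the other 8 members above it.

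**Figure D3:**
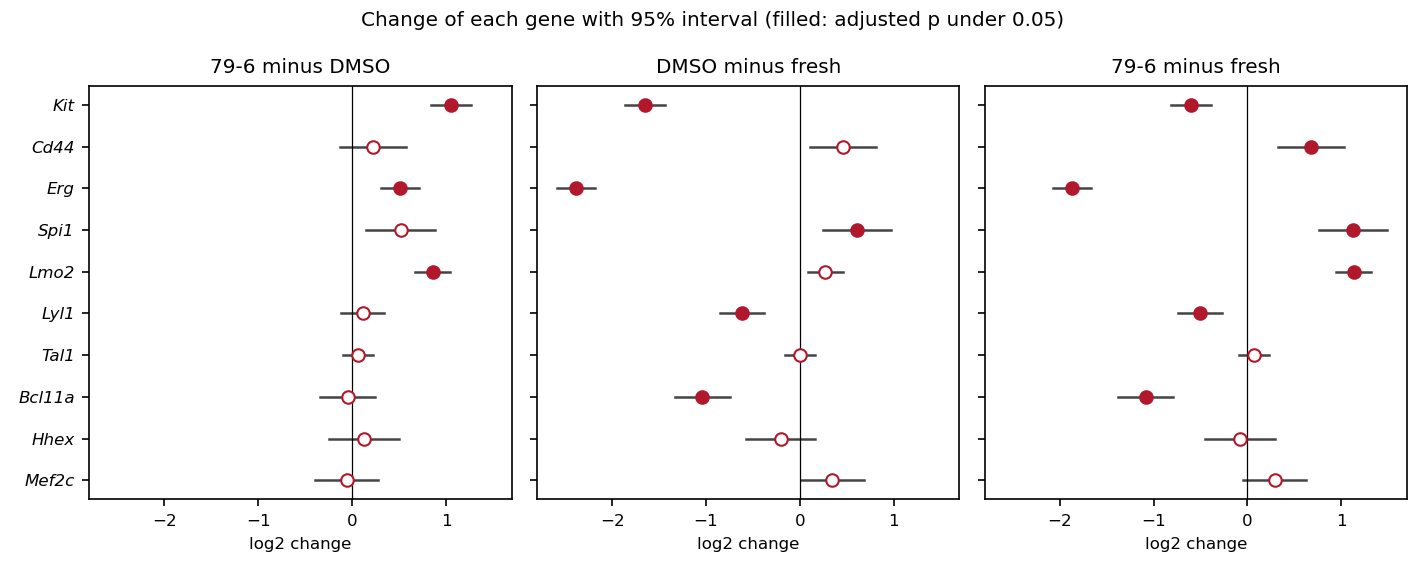
log2 change of each gene (points) with its 95% limma interval (lines) for 79-6 minus DMSO, DMSO minus fresh and 79-6 minus fresh; filled points passed an adjusted p of 0.05. Kit, Erg and Lmo2 are filled in the left panel, at 1.06, 0.51 and 0.86, and Bcl11a is filled only against fresh cells.

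Bcl11a, a zinc-finger repressor of progenitors and B cells, was lower in both cultured groups. Its intensity was 202 and 246 with 79-6, 224 and 238 with DMSO and 430 and 520.0 in fresh cells. The cultured groups overlapped, and both lay well below fresh cells. Bcl11a fell by 1.04 ± 0.13 (SE) with DMSO (adjusted p = 0.0014 by limma), 2.05-fold, and by 1.09 ± 0.13 with 79-6 (adjusted p = 9.16e-04 by limma), 2.12-fold. The second call was lost with the macrophage covariate, where the change was -1.70 (adjusted p = 0.084 by limma). The 79-6 minus DMSO change was -0.05, with an interval of -0.34 to 0.25. Of 11 B cell markers 3 were lower (Ebf1, Igll1 and Blk) and 0 higher with DMSO than in fresh cells. Over all genes 10.7% were called lower and 8.89% higher. With 79-6 against DMSO 1 was higher, Cd79b, and 0 lower, against 2.38% and 1.98% of all genes. Cd79b stood at 1839 to 2789 over all arrays and Cd79a at 18.4 to 23.3. The part of B cells in the Bcl11a signal was not tested.

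Hhex and Mef2c were not called in any of the 3 comparisons. Hhex, a homeodomain factor that Lmo2 induces in mouse thymocytes carrying an Lmo2 transgene, had 150 and 127 with 79-6, 114 and 140 with DMSO and 127 and 167 in fresh cells. All 3 groups overlapped, and its 79-6 minus DMSO change was 0.13 with an interval of -0.25 to 0.50. Whether Hhex follows Lmo2 in these cells was not tested. Mef2c, a MADS-box factor of lymphoid and myeloid progenitors, had 193 and 252 with 79-6, 213 and 246 with DMSO and 168 and 194 in fresh cells. The DMSO arrays lay above the fresh ones, by 0.34 with an interval of 0.01 to 0.68 (adjusted p = 0.152 by limma). The 79-6 mean was 0.29 above the fresh mean (adjusted p = 0.186 by limma), and the arrays of these groups overlapped. Without 79-6 replicate 1 the change was 0.48.

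Within groups the replicates leaned one way for these genes. In 26 of 30 pairs of gene and group replicate 2 was the higher, and for Spi1, Cd44, Mef2c, Bcl11a, Kit and Lmo2 it was so in all 3 groups. The macrophage marker sum was higher in replicate 2 of all 3 groups too. The same count was not made over all genes, so the lean cannot be called particular to these genes. Median intensities of replicates 1 and 2 were 99.3 and 102.4 with 79-6, 100.1 and 100.1 with DMSO and 102.3 and 103.6 in fresh cells.

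Among other genes of the early programme no rise with 79-6 was called. Of 25 further early progenitor genes 0 were higher and 4 lower with 79-6 than with DMSO, against 2.38% and 1.98% of all genes. At that share 0 higher calls do not set the list apart. The largest rise, not called, was that of Meis1 (0.36, adjusted p = 0.108 by limma). The lower ones were the SOX factor Sox13 (-0.57), the zinc-finger repressor Gfi1 (-0.52), the growth factor receptor Igf1r (-0.49) and Myb (-0.35), the factor that sustains haematopoietic progenitors. The list's median log2 change was 0.02, as over all genes. With DMSO against fresh cells 10 of 25 were lower and 1 higher, against 10.7% and 8.89% of all genes. The median was -0.23, against 0.02 over all genes. Mycn, a Myc relative of progenitors, had 152 and 140 with 79-6, 148 and 132 with DMSO and 424 and 384 in fresh cells. Gfi1b, an erythroid and progenitor repressor, had 173 and 182 with 79-6, 189 and 166 with DMSO and 508 and 384 in fresh cells. Both were low in each cultured group, as was Bcl11a. Runx1 (-1.20) and the surface lectin gene Cd93 (-1.18) came next, and the higher gene was Zfpm1 (0.59), which encodes the GATA cofactor FOG1. With 79-6 against fresh cells 14 were lower and 2 higher, against 13.9% and 12.0% of all genes. The median was -0.37, against 0.05 over all genes.

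Among the partners of Lmo2 no rise with 79-6 was called either. Of 17 measured genes of the Lmo2 complex and its relatives 0 were higher and 2 lower with 79-6 than with DMSO, against 2.38% and 1.98% of all genes. At that share 0 higher calls do not set this list apart. The lower ones were the corepressor genes Cbfa2t2 (-0.51) and Cbfa2t3 (-0.44). The list's median was -0.06, against 0.02 over all genes. Ldb1, the protein that joins Lmo2 to its DNA-binding partners, had intensities of 5465 and 4658 with 79-6, 5244 and 5512 with DMSO and 6102 and 5905 in fresh cells, and was not called in any comparison. With DMSO against fresh cells 6 were lower and 3 higher, against 10.7% and 8.89% of all genes, with a median of -0.15. The E protein gene Tcf4 (-0.80), Gata1 (-0.78), Ldb2 (-0.75) and Ssbp3 (-0.53), a partner of Ldb1, fell most. Gata1 stood at 83.9 and 90.2 with 79-6, 85.1 and 77.3 with DMSO and 145 and 134 in fresh cells.

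Among 20 measured genes of Kit signalling 2 were higher and 0 lower with 79-6 than with DMSO, against 2.38% and 1.98% of all genes. The median was 0.10, against 0.02 over all genes. The higher ones were Pik3cd (0.67), the leukocyte catalytic subunit of phosphoinositide 3-kinase, and Ptpn6 (0.50), which encodes the phosphatase SHP-1. Pik3cd had 1253 and 1332 with 79-6, 783 and 844 with DMSO and 920.3 and 947 in fresh cells. With DMSO against fresh cells 6 were lower and 1 higher, Akt1 (0.31), against 10.7% and 8.89% of all genes. The median was -0.10, against 0.02 over all genes. Cblb, an E3 ubiquitin ligase, fell most (-1.87), followed by the adaptor gene Gab2 (-0.66) and Stat5a (-0.46). Kitl, the gene of the Kit ligand, which stromal cells make, stood at 51.7 and 51.0 with 79-6, 47.0 and 49.6 with DMSO and 72.2 and 58.5 in fresh cells. It fell by 0.43 with DMSO (adjusted p = 0.0281 by limma) and did not differ detectably between 79-6 and DMSO (0.09, adjusted p = 0.684 by limma). Of 15 thymic epithelial and mesenchymal markers 9 were called lower with DMSO than in fresh cells, against 10.7% of all genes. Their sums were 5201 and 6930 with DMSO and 13300 and 13704 in fresh cells.

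**Figure D4:**
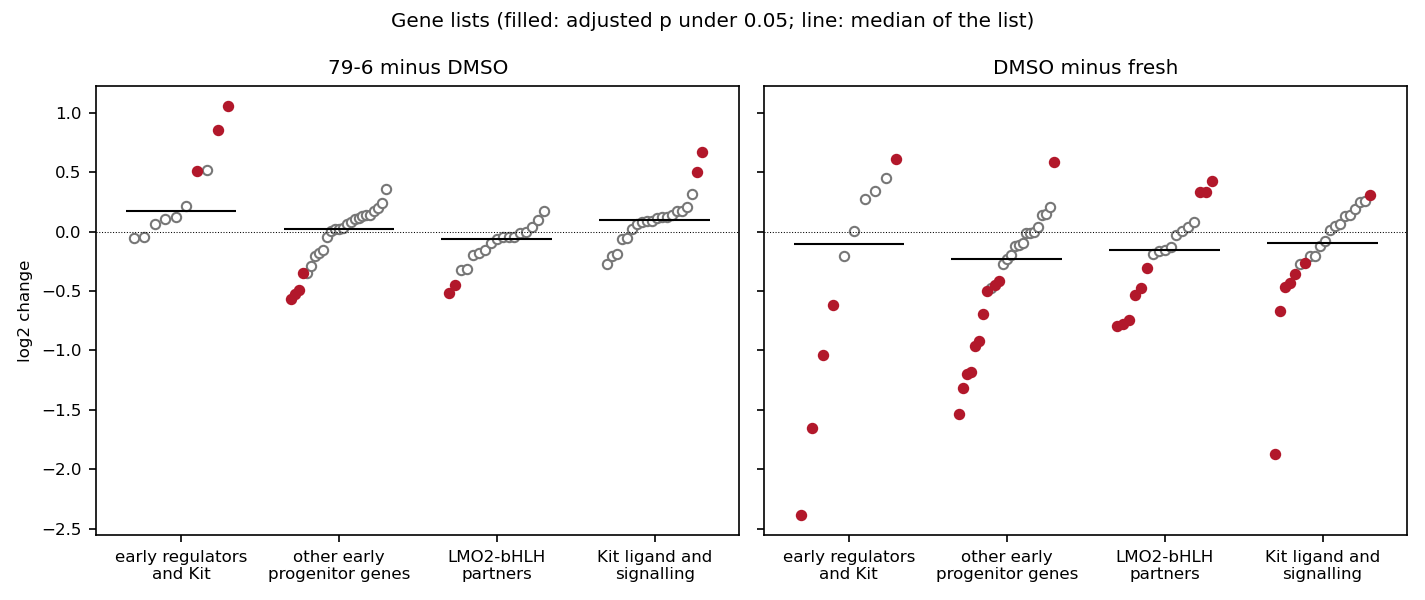
log2 change of every measured gene of 4 lists for 79-6 minus DMSO and DMSO minus fresh; filled points passed an adjusted p of 0.05 and the line is the list's median. With 79-6 the other early progenitor genes and the Lmo2 partners hold 0 higher calls and 4 and 2 lower ones. Over all genes 2.38% were called higher and 1.98% lower. Kit, Lmo2 and Erg are the higher calls of the first list.

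Genes that accompany T commitment were mostly not called between 79-6 and DMSO. Of 11 measured 1 was higher and 0 lower with 79-6 than with DMSO, against 2.38% and 1.98% of all genes. The higher one was Il2ra (0.58, adjusted p = 0.0114 by limma), which marks DN2 and DN3 cells. With DMSO against fresh cells 5 were higher and 5 lower, against 8.89% and 10.7% of all genes. Largest were the falls of Il2ra (-1.94), the pre-T cell receptor chain gene Ptcra (-1.86) and Cd3g (-0.68) and the rise of Ets1 (0.66). Il2ra had 5685 and 5336 with 79-6, 3769 and 3623 with DMSO and 14481 and 13926 in fresh cells, the same order of groups as Kit and Erg. Bcl11b, the factor that closes the progenitor programme, had 2935 and 3133 with 79-6, 3539 and 3437 with DMSO and 3826 and 3659 in fresh cells, and its change of -0.20 against DMSO did not pass the test (adjusted p = 0.184 by limma).

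Genes with the closest profile were ranked by the root mean square distance between log2 values centred on each gene's mean over the 6 arrays. Nearest to Kit were Itga9 (distance 0.14), Cmpk2 (0.16) and Rsad2 (0.16), which changed with 79-6 against DMSO by 0.82, 0.71 and 0.73 and with DMSO against fresh cells by -1.72, -1.55 and -1.63. Nearest to Erg were Gpr183 (0.07), Ube2l6 (0.08) and Il31ra (0.09). Lmo2 lay closest to Ripor2, Irak2 and Serpinb8 (0.07 to 0.08) and Spi1 to Rab7b, Plek and Fes (0.08 to 0.09). Bcl11a lay closest to Sik1, Nol4l and Omp (0.06 to 0.08), Lyl1 to Gsto1, Des and Yap1 (0.03 to 0.04) and Cd44 to Slc35f5, Ahnak and Fam234a (0.05 to 0.06). For Hhex, Mef2c and Tal1, which were not called, the nearest genes (Serping1, Gm4971 and Olfr1126 at the head) are genes that vary as little between arrays. No other member was among the 3 nearest genes of any member.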

How the data were processed

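RNA of Thy1.2+ cells was extracted, biotin-labelled and hybridised to 1-colour whole-transcript arrays, per the labels' protocols. Each deposited value is a linear intensity that the authors obtained by RMA with oligo, per the submitters' processing notes, with versions and genome build not given in the sources used here. Its log2 was taken for every test. Of 34760 probe sets 21640 had 1 gene symbol, 1321 several and 11799 none. The brightest probe set over the 6 arrays stood for each of 19937 genes. lmFit and eBayes of limma 3.58.1, run in R 4.3.3, fitted group means to all 6 arrays, with 3 degrees of freedom from residuals and 4.24 from the prior. Tests were two-sided, and a gene was called at an adjusted p under 0.05 (Benjamini-Hochberg, all 19937 genes). The fit was tested on simulated data.

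Members and gene lists were chosen with earlier results of these data known, so list counts are descriptions and no list was tested. Named were all members, up to 4 called genes per list with the largest change, and the 3 nearest profiles of each member. Chosen after their values were seen were Cpa3 and the other mast cell genes, Gzma, Csf1r, Itgam, Clec9a, Meis1, Zfpm1, Ldb1, Akt1, Kitl, Bcl11b, the thymocyte genes, Cd79a, Cd79b and the called endothelial and B cell genes. Alternatives were a replicate block, 2 other scalings, the mean over probe sets, a filter on level, a trended robust spread, a pseudocount of 50, the 4 compared arrays alone, a macrophage marker covariate and leaving out each array. Deviations of same-numbered arrays had correlations across genes of 0.0948 (79-6 and fresh), -0.0740 (79-6 and DMSO) and 0.0036 (DMSO and fresh), so the numbers were not taken to pair arrays.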

Additional observations from a re-analysis of the deposited data

How the results depend on the processing

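Of 444 values of single members under alternatives, 397 kept direction and side of the threshold, 19 lost and 12 gained a call, and 16 changed sign. The macrophage marker covariate left 0 members called for 79-6 against DMSO, 3 for DMSO against fresh and 1 for 79-6 against fresh, where the main fit called 3, 5 and 7; it cut the calls over all genes to 32, 739 and 94. With it the sign turned for Lyl1 (-0.029), Hhex (-0.17) and Cd44 (-0.12) in 79-6 against DMSO, for Tal1 (-0.06) and Cd44 (-0.069) in DMSO against fresh, and for Tal1 (-0.039), Cd44 (-0.19) and Mef2c (-0.26) in 79-6 against fresh. Of these only Cd44 in the last was called in the main fit, and the cause was not tested. The covariate did not overlap between groups and is largely inseparable from them.

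Leaving out 1 array gave 2 to 3, 4 to 6 and 6 to 8 called members in the same order of comparisons. It turned the sign of members that were not called: for 79-6 against DMSO the range was -0.019 to 0.27 for Hhex, -0.19 to 0.10 for Bcl11a and -0.25 to 0.14 for Mef2c, for DMSO against fresh -0.022 to 0.031 for Tal1, and for 79-6 against fresh -0.28 to 0.12 for Hhex. Each such fit leaves a group with 1 array, assumed to vary like the others, and 11 of the 15 calls held in all 6. With the replicate block 4, 7 and 7 members were called: it added Spi1 for 79-6 against DMSO (adjusted p = 0.0326) and Cd44 (0.0117) and Mef2c (0.0331) for DMSO against fresh, and changed no other call. Over all genes, calls for 79-6 against DMSO numbered 93 to 661 without 1 array, 1547 of 9968 with the level filter, 1405 with a pseudocount and 1723 with a trended spread, against 869; for DMSO against fresh they numbered 2286 to 2382 without 1 of its arrays, against 3902, and for 79-6 against fresh 3081 and 3321 without fresh replicate 1 and 2, against 5174. Precision is limited by 2 arrays a group.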
